A study of Mus musculus with 6 samples.

Results

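The genes described here are 34 targets of the hypoxia-inducible factors (HIFs) that lie outside glycolysis, measured in mouse embryos that lack Arid3b and in wild-type embryos. Arid3b belongs to the ARID family of DNA-binding transcription regulators. The genes were chosen by name, as targets reported for HIF, and every one of the 34 had at least 1 probe on the array, 55 probes in all out of 39429. A gene entered the test if 1 of its probes stood well above background on every array of a genotype. This held for 32 of the 34, out of 19792 genes tested in the whole series, of which 14208 carry a symbol and the others only an accession. The members were chosen with earlier results of these data known.

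Total RNA came from trunks at embryonic day 9.5, which reached from the otic vesicle back to somite 15 and included the forelimb buds. There were 3 arrays of Arid3b-null trunks and 3 arrays of wild-type trunks. Each array held RNA pooled from 4 embryos, so the spread within a genotype is between pools. The labels name neither the strain nor the design of the null allele. The sources used here do not say whether the pools were matched for somite number.

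Signals are given as log2 after scaling to the 75th percentile of the array, and a change is Arid3b-null minus wild type. Arid3b itself read 0.54, 0.65 and 0.46 on the Arid3b-null arrays, against 2.18, 2.57 and 1.97 on the wild-type arrays, with its brightest probe. Its other 2 tested probes were 9.41-fold and 3.72-fold lower in Arid3b-null, and whether a probe lies in the deleted part is not known here. The 75th percentile of the raw signal lay between 611 and 844 units. Of 11 fixed markers of somites, forelimb bud and axial level, 11 were well above background on at least 1 array and 0 passed the test (limma), with 2 at an unadjusted p under 0.05. Their summed linear signal was 24.7 to 28.8 in Arid3b-null and 25.3 to 27.5 in wild type, relative to the 75th percentile. Both groups overlapped on this sum. On each of the 3 slides the Arid3b-null array lay at position 2 and the wild-type array at position 1, so position and genotype cannot be told apart.

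HIFs are transcription factors made of an oxygen-regulated alpha subunit and the partner ARNT. When oxygen is plentiful, prolyl hydroxylases mark the alpha subunit for destruction. When it is scarce, the dimer binds short hypoxia response elements and switches on genes that lower oxygen use in mitochondria, attract blood vessels, keep cell pH steady and allow collagen to be modified. Mouse embryos at midgestation need this pathway for vessel, heart and placenta development.

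Most of these genes were higher in the Arid3b-null trunks. Of the 32 tested, 28 rose, 2 fell and 2 did not pass (limma with Benjamini-Hochberg adjustment over all genes tested, threshold 0.05). Over all genes tested, 13.6% rose and 12.9% fell. The median log2 change was 1.92 over the 32 members and -0.04 over all genes. Stc1 entered the test only through the Arid3b-null arrays, where it was bright enough, so its rise is no independent result. Without it 27 of 31 rose, with a median of 1.77. The change was at least 2-fold in 23 of the members that rose, against 3.7% of all genes, and at least 4-fold in 16, against 0.57%. Without Stc1 the 2-fold and 4-fold counts were 22 and 15 of 31 members. Among all genes 26 rose at least 8-fold, and 7 of these are members, namely Ndufa4l2, Ndrg1, Ier3, Ddit4, Car9, Ppp1r3c and Adm. These counts depended on the background correction and on the choice of probe. Another correction was normexp, with an offset of 50 units added to every signal. With it 20 members rose at least 2-fold and 12 at least 4-fold, against 1.39% and 0.21% of all genes. With normexp 3 (Ndufa4l2, Ndrg1 and Ddit4) rose at least 8-fold, against 5 of all genes. With the mean of a gene's tested probes the 2-fold and 4-fold counts were 22 and 14, against 3.67% and 0.55% of all genes. In 30 of the 32 the arrays of the genotypes did not overlap, which was so for 46.2% of all genes. RNA of whole trunks cannot tell more RNA per cell from more cells of an expressing type.

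**Figure D1:**
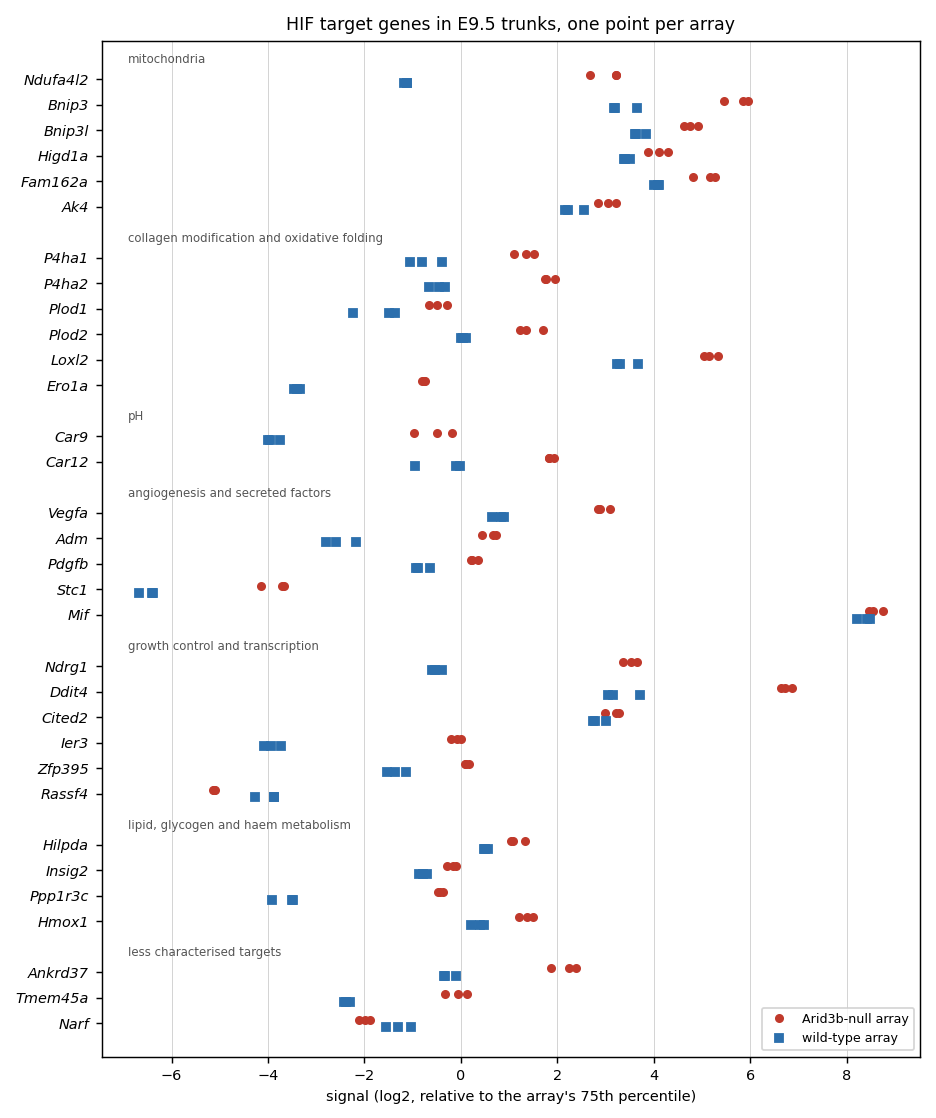
Signal of each tested gene on each array (log2, relative to the array's 75th percentile, x axis), with Arid3b-null arrays as red circles above wild-type arrays as blue squares in every row. The red and blue points are apart in 30 of 32 rows and overlap for Mif and Cited2, while Rassf4 and Narf have the red points to the left.

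The promoters of the 6 members with the largest changes among those with a RefSeq promoter window are shown first, because the core of the hypoxia response element can be read in them. Each window runs from 250 bases before to 50 bases after the gene start in GRCm38.p6, printed 5′ to 3′ on the strand of the gene. Capitals mark the cores ACGTG and GCGTG on either strand, so that CACGT and CACGC are the same cores read from the other strand. The windows are Ier3 at chr17:35821463-35821762 (plus strand), Ddit4 at chr10:59951721-59952020 (minus), Car9 at chr4:43506776-43507075 (plus), Ppp1r3c at chr19:36736555-36736854 (minus), Adm at chr7:110627407-110627706 (plus) and Ero1a at chr14:45318523-45318822 (minus).
Ier3: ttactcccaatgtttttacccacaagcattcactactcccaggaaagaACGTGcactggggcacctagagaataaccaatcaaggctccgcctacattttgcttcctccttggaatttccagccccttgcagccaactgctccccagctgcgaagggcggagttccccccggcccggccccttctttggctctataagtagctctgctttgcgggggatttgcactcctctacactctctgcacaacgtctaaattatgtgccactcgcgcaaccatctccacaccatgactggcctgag
Ddit4: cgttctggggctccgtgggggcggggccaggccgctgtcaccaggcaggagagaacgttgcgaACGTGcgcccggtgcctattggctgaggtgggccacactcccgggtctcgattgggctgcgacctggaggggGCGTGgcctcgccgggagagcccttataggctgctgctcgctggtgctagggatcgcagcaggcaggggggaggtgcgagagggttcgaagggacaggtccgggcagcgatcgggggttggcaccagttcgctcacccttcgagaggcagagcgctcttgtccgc
Car9: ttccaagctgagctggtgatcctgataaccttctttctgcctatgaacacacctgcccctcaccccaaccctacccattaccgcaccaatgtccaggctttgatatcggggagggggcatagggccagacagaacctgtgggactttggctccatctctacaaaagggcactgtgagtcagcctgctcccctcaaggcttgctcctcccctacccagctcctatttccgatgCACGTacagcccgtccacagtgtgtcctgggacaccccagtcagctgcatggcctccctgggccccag
Ppp1r3c: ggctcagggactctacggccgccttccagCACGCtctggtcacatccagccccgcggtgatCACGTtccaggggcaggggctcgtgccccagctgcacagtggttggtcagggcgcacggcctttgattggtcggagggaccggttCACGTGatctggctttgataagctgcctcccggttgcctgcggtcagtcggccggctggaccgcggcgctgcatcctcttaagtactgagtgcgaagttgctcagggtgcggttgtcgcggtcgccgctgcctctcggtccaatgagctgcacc
Adm: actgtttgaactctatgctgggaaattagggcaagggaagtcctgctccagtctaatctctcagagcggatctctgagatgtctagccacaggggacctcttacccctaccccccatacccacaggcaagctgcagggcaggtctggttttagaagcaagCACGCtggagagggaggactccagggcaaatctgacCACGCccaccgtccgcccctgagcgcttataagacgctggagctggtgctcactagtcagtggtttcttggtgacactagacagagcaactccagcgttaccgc
Ero1a: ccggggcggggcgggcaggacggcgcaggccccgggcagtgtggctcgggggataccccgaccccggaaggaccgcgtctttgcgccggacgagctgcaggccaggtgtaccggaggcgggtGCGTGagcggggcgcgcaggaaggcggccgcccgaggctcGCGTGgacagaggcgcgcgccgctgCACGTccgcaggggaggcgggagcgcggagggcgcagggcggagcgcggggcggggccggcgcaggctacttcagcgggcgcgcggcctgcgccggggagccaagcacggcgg

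In Car9 the only core starts 18 bases before the gene start, and in Ier3 the only one starts 202 bases before it. Ddit4 has 2 cores, Adm has 2, both of the GCGTG form, and Ero1a has 3. Ppp1r3c has 4, of which 2 are the same 6 bases read on both strands, since CACGTG holds ACGTG on either strand. CACGTG is also the E-box that other transcription factors bind. A match of letters is a description and shows no binding.

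Promoter windows were in the table for 24 of the 34 members. No window was listed for Ndufa4l2, Bnip3l, Plod2, Lox, Loxl2, Pdgfb, Stc1, Ndrg1, Zfp395 and Hmox1. A core of either form stood in at least 1 window of 23 of the 24 members (95.8%), the exception being Car12, against 46.7% of all 27025 genes with a window. ACGTG was found in 17 members (70.8%), against 21.8% of all genes. GCGTG was found in 18 (75%), against 35.2% of all genes. The members were chosen as reported targets of HIF, which binds the hypoxia response element, so a higher share among them is no independent result. The members' windows were rich in CG dinucleotides, with a median of 25 per window against 7 over all windows, and both cores contain CG. Among genes with a window of at least 25 CG dinucleotides, 76.3% held a core, 30.6% ACGTG and 67.4% GCGTG. Those windows had a median of 32 CG dinucleotides, against 25 in the members, so the sets are not matched for CG. The core was not limited to members that rose. It stood in 18 of the 19 members with a window that rose, and in 5 of the 5 others (Mif, Cited2, Mxi1, Rassf4 and Narf).

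**Figure D2:**
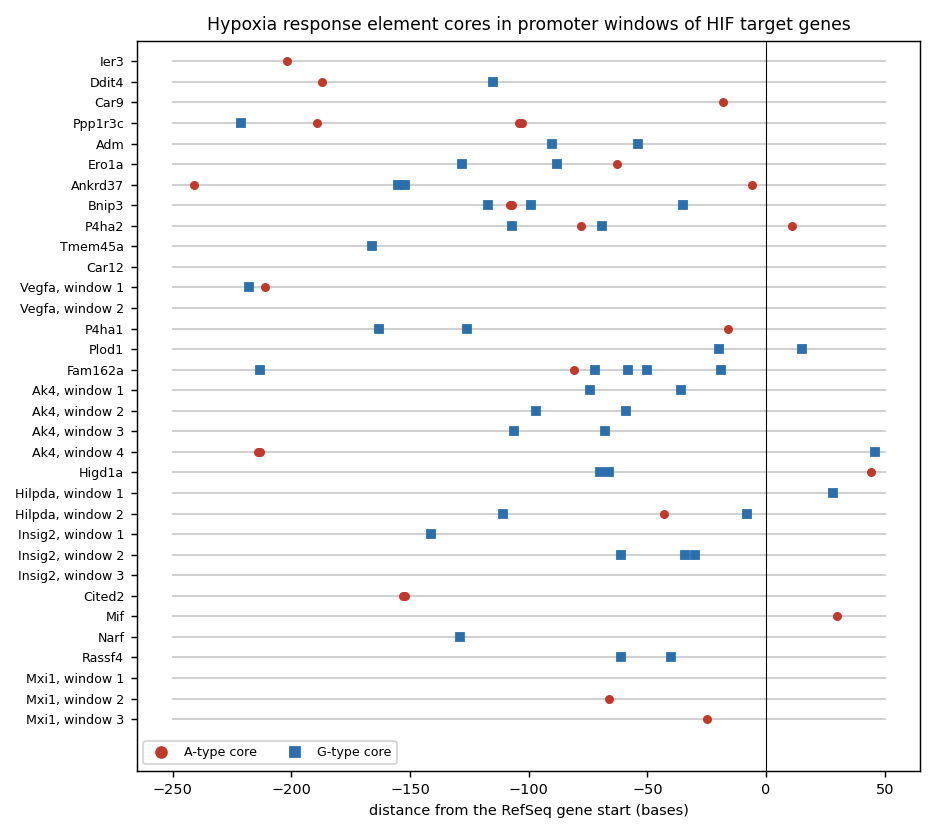
Position of each core (x axis, bases from the RefSeq gene start) in the promoter windows of 24 members, 1 row per window, ordered from the largest rise at the top to the largest fall, with the untested Mxi1 last. Red circles are ACGTG and blue squares are GCGTG on either strand. Car12, 1 of 2 Vegfa windows, 1 of 3 Insig2 windows and 1 of 3 Mxi1 windows hold none.

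Genes of mitochondria rose in 6 of 6 cases, with a median log2 change of 1.04. Ndufa4l2, a relative of a respiratory chain subunit that lowers electron transport when oxygen is scarce, read 3.22, 3.21 and 2.68 on the Arid3b-null arrays, against -1.12, -1.18 and -1.11 on the wild-type arrays. The change was 4.17 ± 0.17 (SE), or 18-fold (adjusted p = 0.000128). This was the largest change of any member, and the third Arid3b-null array was the lowest of its group.

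Bnip3 and Bnip3l are paralogous receptors in the outer mitochondrial membrane that mark mitochondria for removal by autophagy. Bnip3 read 5.85, 5.94 and 5.45 in Arid3b-null, against 3.18, 3.66 and 3.20 in wild type, a 5.28-fold rise (log2 2.40 ± 0.19 SE, adjusted p = 0.000761). Bnip3l read 4.75, 4.93 and 4.64 in Arid3b-null, against 3.62, 3.83 and 3.64 in wild type, a 2.10-fold rise (log2 1.07 ± 0.12 SE, adjusted p = 0.00234). Both were apart between genotypes on every array. The difference between the paralogues was not tested.

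The other mitochondrial genes rose by about 2-fold or less. Fam162a, which encodes a mitochondrial protein linked to hypoxic cell death, rose 2.02-fold (adjusted p = 0.00412), with 5.08 ± 0.23 in Arid3b-null and 4.06 ± 0.05 in wild type (SD, n = 3 each). Higd1a, an inner membrane protein of the respiratory chain, rose 1.58-fold (adjusted p = 0.0130), with 4.09 ± 0.20 in Arid3b-null and 3.43 ± 0.06 in wild type (SD, n = 3 each). Ak4, an adenylate kinase of the mitochondrial matrix, rose 1.66-fold (adjusted p = 0.0177), with 3.04 ± 0.19 in Arid3b-null and 2.30 ± 0.21 in wild type (SD, n = 3 each). The calls of Ak4 and Higd1a depended on single arrays. Ak4 did not pass without Arid3b-null replicate 1 or 2 or wild-type replicate 1 or 3 (adjusted p = 0.0512, 0.0542, 0.0653 and 0.0524), and Higd1a did not pass without wild-type replicate 1 (adjusted p = 0.0532). With dim probes kept in, neither Higd1a (adjusted p = 0.0580) nor Ak4 (adjusted p = 0.0689) passed.

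Enzymes that modify collagen, with the oxidase Ero1a, rose in 6 of the 6 members tested (median 1.92). Collagen chains need prolyl hydroxylation to form a stable triple helix, and lysyl hydroxylation and oxidation for cross-links. P4ha1 and P4ha2 encode catalytic subunits of prolyl 4-hydroxylase. P4ha1 read 1.34, 1.51 and 1.11 in Arid3b-null, against -0.80, -0.39 and -1.06 in wild type, a 4.20-fold rise (adjusted p = 0.00133). P4ha2 read 1.77, 1.95 and 1.74 in Arid3b-null, against -0.65, -0.33 and -0.46 in wild type, a 4.92-fold rise (adjusted p = 0.000349). The genotypes were well apart for both subunits.

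The lysyl hydroxylases, which prepare collagen for cross-linking, rose too. Plod2 read 1.36, 1.70 and 1.22 in Arid3b-null, against 0.01, 0.04 and 0.10 in wild type, a 2.59-fold rise (adjusted p = 0.00172). Plod1 read -0.66, -0.50 and -0.29 in Arid3b-null, against -1.49, -1.36 and -2.23 in wild type, a 2.31-fold rise (adjusted p = 0.0141). The low wild-type replicate 3 widened the spread of Plod1, whose change within slides was 0.83, 0.86 and 1.94. Plod1 did not pass without Arid3b-null replicate 3 (adjusted p = 0.0519) or with dim probes kept in (adjusted p = 0.0546).

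Loxl2, a lysyl oxidase that cross-links collagen, read 5.04, 5.14 and 5.33 in Arid3b-null, against 3.31, 3.67 and 3.24 in wild type, a 3.40-fold rise (adjusted p = 0.00100). Lox, the founding lysyl oxidase, was too dim to be tested. Its brighter probe was well above background on 2 of 3 Arid3b-null arrays and 0 of 3 wild-type arrays, at -5.36, -5.17 and -6.03 in Arid3b-null, against -8.08, -7.07 and -7.73 in wild type. With the processed signal this probe bounds Lox as at least 1.72-fold higher in Arid3b-null, and the dimmer probe as at least 1.26-fold higher. These bounds compare means that include an Arid3b-null array not well above background. With its brighter probe Lox passed where no filter on dim probes was set (adjusted p = 0.0264). That setting uses wild-type values not well above background, so the pass is given as a description.

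Ero1a, the endoplasmic reticulum oxidase that passes on the electrons of disulfide formation, was close among the arrays of each genotype. It read -0.80, -0.76 and -0.74 in Arid3b-null, against -3.33, -3.41 and -3.46 in wild type. The rise was 6.21-fold (log2 2.64 ± 0.10 SE, adjusted p = 0.000118).

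Car9 and Car12, membrane carbonic anhydrases that act outside the cell and help to remove acid, both rose. Car9 read -0.50, -0.19 and -0.97 in Arid3b-null, against -4.01, -3.74 and -3.96 in wild type, a 10.2-fold rise (log2 3.35 ± 0.21 SE, adjusted p = 0.000391). Car12 read 1.83, 1.94 and 1.83 in Arid3b-null, against -0.02, -0.11 and -0.94 in wild type, a 4.66-fold rise (log2 2.22 ± 0.25 SE, adjusted p = 0.00212). Wild-type replicate 3 was the low array for Car12, and no wild-type array of either gene reached the lowest Arid3b-null array.

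Of the 5 secreted factors, 4 rose and 1 did not pass (median 2.15). This count and median include Stc1, which entered the test only through the Arid3b-null arrays. Vegfa, the main growth factor of endothelial cells, read 2.88, 3.1 and 2.85 in Arid3b-null, against 0.83, 0.90 and 0.65 in wild type, a 4.44-fold rise (log2 2.15 ± 0.12 SE, adjusted p = 0.000375). Adm, which encodes the vasodilator peptide adrenomedullin, read 0.66, 0.73 and 0.44 in Arid3b-null, against -2.79, -2.17 and -2.59 in wild type, an 8.71-fold rise (log2 3.12 ± 0.18 SE, adjusted p = 0.000375). Pdgfb, the endothelial signal that recruits pericytes, rose 2.10-fold (adjusted p = 0.00223), with 0.26 ± 0.08 in Arid3b-null and -0.81 ± 0.16 in wild type (SD, n = 3 each). All 3 had separate ranges in the genotypes.

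Beside these, 1 of 8 endothelial markers passed the test, where 26.5% of all genes passed in either direction. Tie1, an endothelial receptor, rose 1.52-fold (adjusted p = 0.0281), a call lost without Arid3b-null replicate 2 or 3 or wild-type replicate 1 or 3 (adjusted p = 0.0707, 0.0803, 0.0901 and 0.0736), with median scaling (0.0551), without a filter on dim probes (0.0986) and with the slide as a block (0.0508). The summed linear signal of the 8 markers was 27.8 to 32.3 in Arid3b-null and 25.8 to 30.3 in wild type, relative to the 75th percentile, and these ranges overlapped.

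Stc1, a secreted glycoprotein hormone, was not well above background on any wild-type array, and its rise is given as a description. It read -3.67, -3.71 and -4.16 in Arid3b-null, against -6.68, -6.39 and -6.40 in wild type. With the processed signal this is a bound of at least 5.39-fold. With normexp and its offset of 50 units the difference was 1.62-fold, so the bound depends on the correction used, offset included. Mif, a cytokine, read 8.76, 8.55 and 8.45 in Arid3b-null, against 8.21, 8.43 and 8.49 in wild type. The ranges of Mif overlapped, and its change of 0.21 ± 0.13 (log2, SE) did not pass (adjusted p = 0.277). No spot of a tested member was saturated.

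Among genes of growth control and transcription, 4 rose, 1 fell and 1 did not pass of 6 tested (median 2.45). The fall, of Rassf4, did not pass with normexp, and 12.9% of all genes fell. Ndrg1, a cytoplasmic stress protein, read 3.53, 3.66 and 3.37 in Arid3b-null, against -0.55, -0.39 and -0.60 in wild type, a 16.3-fold rise (log2 4.03 ± 0.12 SE, adjusted p = 5.83e-05). This was the smallest adjusted p of any member. Ier3, an early response gene that affects cell survival, read -0.07, -0.0039 and -0.21 in Arid3b-null, against -4.09, -3.73 and -3.94 in wild type, a 14.2-fold rise (adjusted p = 9.98e-05).

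Ddit4 encodes REDD1, an inhibitor of the growth regulator mTORC1. It read 6.71, 6.87 and 6.65 in Arid3b-null, against 3.05, 3.72 and 3.15 in wild type, a 10.8-fold rise (log2 3.44 ± 0.19 SE, adjusted p = 0.000359). Ddit4 is also induced by ATF4, the transcription factor of the integrated stress response. Of 19 ATF4 targets tested, Ddit4 among them, 16 rose and 0 fell (median 1.39), where 13.6% of all genes rose and 12.9% fell. Chac1, an ATF4 target that rose, was up 27-fold, or 17.1-fold with normexp. The part of ATF4 in the rise of Ddit4 was not tested.

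Zfp395, a zinc finger protein gene, rose 2.75-fold (adjusted p = 0.00107), with 0.11 ± 0.04 in Arid3b-null and -1.35 ± 0.20 in wild type (SD, n = 3 each). Cited2 encodes a protein that competes with HIF-1 alpha for the coactivators CBP and p300, and it read 3.28, 2.99 and 3.23 in Arid3b-null, against 2.73, 3.01 and 2.77 in wild type. Its arrays overlapped, and the change of 0.33 ± 0.13 (log2, SE) did not pass (adjusted p = 0.112). Mxi1, which encodes an antagonist of Myc, was not well above background on any of the 6 arrays with its single probe, made for 1 transcript, and is given no fold.

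Rassf4, a gene of the Ras association domain family, fell to -5.13, -5.11 and -5.14 in Arid3b-null, against -3.87, -3.88 and -4.27 in wild type, which is 2.17-fold lower (adjusted p = 0.00284). It was dim, and with normexp the log2 change was -0.27 and did not pass (adjusted p = 0.0831). Its arrays did not overlap on the main scale.

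Genes of lipid, glycogen and haem metabolism rose in 4 of 4 cases (median 0.82). Ppp1r3c, the subunit that brings protein phosphatase 1 to glycogen, read -0.47, -0.37 and -0.44 in Arid3b-null, against -3.92, -3.50 and -3.47 in wild type, a 9.21-fold rise (log2 3.20 ± 0.15 SE, adjusted p = 0.000197). The other genes of this group rose by 2.0-fold or less. Hmox1, the enzyme that breaks down haem, rose 2.0-fold (adjusted p = 0.00326), with 1.36 ± 0.15 in Arid3b-null and 0.36 ± 0.14 in wild type (SD, n = 3 each). Hilpda, a lipid droplet protein that inhibits triglyceride breakdown, rose 1.55-fold (adjusted p = 0.0108), with 1.15 ± 0.16 in Arid3b-null and 0.51 ± 0.05 in wild type (SD, n = 3 each). Insig2, which retains the regulators of sterol synthesis in the endoplasmic reticulum, rose 1.52-fold (adjusted p = 0.00927), with -0.18 ± 0.10 in Arid3b-null and -0.79 ± 0.08 in wild type (SD, n = 3 each). The call of Hilpda was lost with dim probes kept in (adjusted p = 0.0528).

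Of 3 targets with less known roles, 2 rose and 1 fell. Ankrd37, an ankyrin repeat gene, read 2.24, 2.40 and 1.88 in Arid3b-null, against -0.34, -0.11 and -0.34 in wild type, a 5.41-fold rise (adjusted p = 0.000468). Tmem45a, a transmembrane protein gene, read 0.13, -0.05 and -0.34 in Arid3b-null, against -2.38, -2.29 and -2.42 in wild type, a 4.84-fold rise (adjusted p = 0.000391). Both were apart on every array. Narf, which encodes a nuclear protein that binds prelamin A, fell to -1.89, -2.11 and -1.99 in Arid3b-null, against -1.56, -1.31 and -1.03 in wild type, which is 1.62-fold lower (adjusted p = 0.0200). The Narf call was lost without Arid3b-null replicate 2 or 3 or wild-type replicate 2 (adjusted p = 0.0638, 0.058 and 0.0548) and without a filter on dim probes (0.0765).

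**Figure D3:**
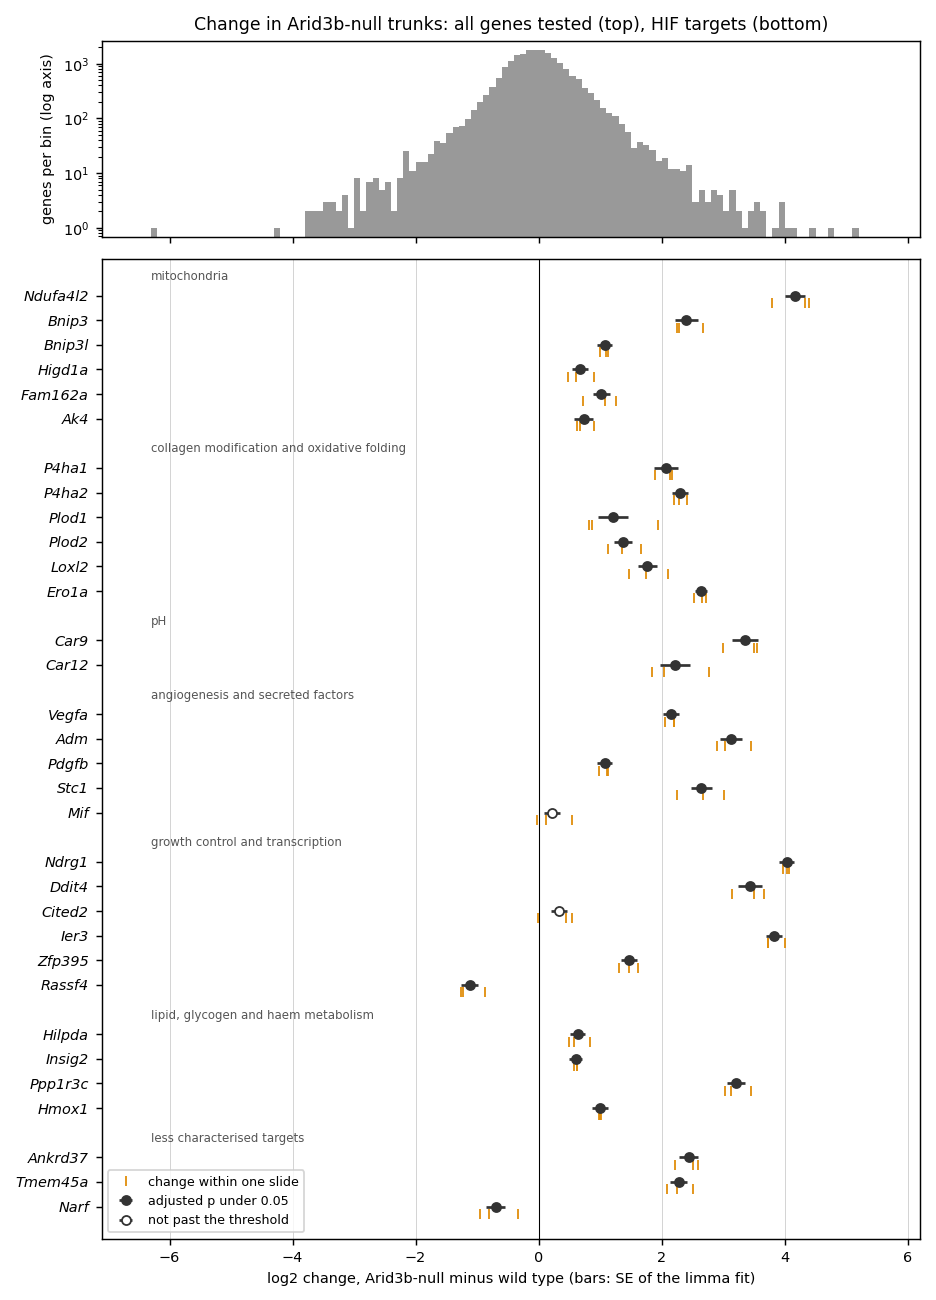
Top, log2 changes of all 19792 genes tested, as genes per bin on a log axis. Bottom, the log2 change of each tested member with its SE (bars), filled where adjusted p was under 0.05, and the 3 changes within slides (orange ticks). The members run from -1.12 for Rassf4 to 4.17 for Ndufa4l2, and the ticks of all 30 called members lie on the same side of 0 as the mean.

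The 3 slides each held 1 array of both genotypes. The median change over the members was 1.79, 1.78 and 2.09 within slides 1, 2 and 3, where the median over all genes was 0.03, -0.03 and -0.10. On each slide all 30 called members had the sign of the fitted change, a direction that arrays without overlap fix in advance. The median signal of the members was 1.37, 1.60 and 1.21 on the Arid3b-null arrays, against -0.60, -0.36 and -0.73 on the wild-type arrays. The second array was the highest of its genotype for 20 of 32 members in Arid3b-null and for 22 of 32 in wild type. These 2 arrays share slide 2, and the medians over all genes on them, -0.72 in Arid3b-null and -0.77 in wild type, differed little from those of the other arrays. With the slide as a block the counts remained 28 up and 2 down.

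Separate probes of a gene bear on whether a change belongs to 1 probe. Of the members, 14 had more than 1 tested probe, and in all 14 the probes had the same sign. The 3 probes of Bnip3 gave log2 changes of 2.40, 2.56 and 2.23, and those of Loxl2 gave 1.77, 1.68 and 1.69. The Vegfa probes carry accessions of different transcripts, NM_001025250 and NM_001025257, and gave 2.15 and 1.73. The probes of these genes moved by similar amounts.

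Bnip3l was less even, with 1.07, 1.07 and 0.96 for 3 probes and 1.99 ± 0.36 (SE) for the dimmest. The 4 probes of Zfp395 gave changes of 1.46, 1.92, 1.41 and 1.75. The dimmer probe of Ak4 gave 0.69 ± 0.26 (SE) and did not pass in a fit over all 24420 tested probes (adjusted p = 0.0948). Neither probe of Mif or Cited2 passed in that fit (adjusted p = 0.279 and 0.342 for Mif, 0.114 and 0.676 for Cited2).

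**Figure D4:**
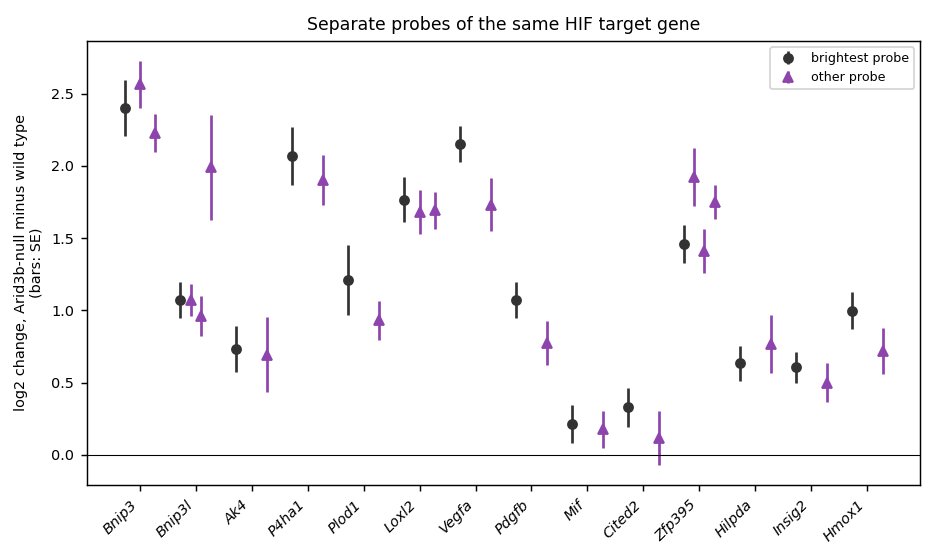
Log2 change, Arid3b-null minus wild type, of every tested probe of the 14 members with several probes (y axis, bars are SE), the brightest probe as a black circle and the others as purple triangles. All points lie above 0, and the dimmest Bnip3l probe stands apart from the other 3.

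The background correction changed the size of several folds. With normexp and an offset of 50 units in place of the scanner software's own subtraction, 28 members rose and 1 fell. The rise was then 6.22-fold for Ier3, 5.60-fold for Adm, 4.93-fold for Car9, 4.68-fold for Ppp1r3c and 3.64-fold for Ero1a. Each of these 5 kept an adjusted p under 0.05, and their folds were more than 1.5 times smaller. The median over the members was 1.54 in that setting. An added offset weighs most on dim signals, and its part in the smaller folds was not tested.

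**Figure D5:**
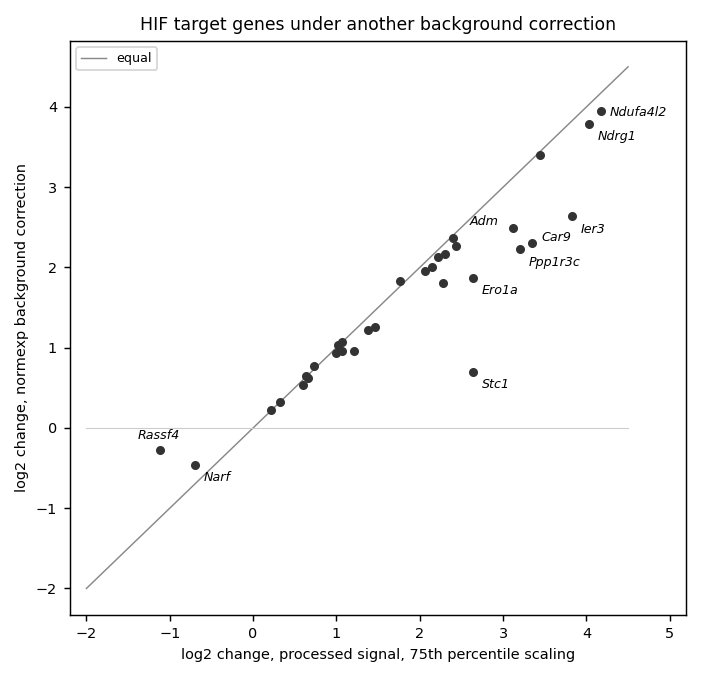
Log2 change of the 32 members with the processed signal (x axis) and with the normexp background correction (y axis), 1 point per gene, with the line of equality. Ier3, Car9, Ppp1r3c, Adm, Ero1a and Stc1 lie well below the line, Ndufa4l2 and Ndrg1 close to it, and Rassf4 is nearer to 0.

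Other genes of the pathway are given from lists of subunits, oxygen sensors and further targets. Of 21 glycolytic HIF targets 18 rose and 0 fell (median 1.21), where 13.6% of all genes rose and 12.9% fell. The 3 with the smallest adjusted p were Eno2 at 35.2-fold, Pfkp at 11.5-fold and Aldoc at 4.57-fold. With normexp the rise was 21.6-fold for Eno2 and 7.22-fold for Pfkp, and over the mean of its tested probes Pfkp rose 3.95-fold. Of 24 other reported targets tested, 17 rose and 2 fell (median 0.85), beside the same shares of all genes. Bhlhe40, a repressor and clock component, rose 15.2-fold, the lipoprotein receptor gene Vldlr 7.32-fold and the histone demethylase gene Kdm3a 2.75-fold. Bhlhe40 rose 6.88-fold with normexp. Vldlr is also counted among the ATF4 targets, and Egln3 both here and among the oxygen sensors. The 2 that fell, Angptl4 with a log2 change of -0.79 (adjusted p = 0.00273) and Trf with -1.28 (adjusted p = 0.0129), were named after their values were seen. The Trf call was lost with dim probes kept in (adjusted p = 0.0506).

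Among 10 HIF subunits and oxygen sensors, 3 rose, 1 fell and 6 did not pass (median -0.06), where 13.6% of all genes rose and 12.9% fell. The prolyl hydroxylase genes Egln3 and Egln1, themselves HIF targets, rose 5.48-fold (adjusted p = 0.00135) and 3.49-fold (adjusted p = 0.000848), and Hif3a rose 2.23-fold. With normexp the rise of Egln1 was 2.04-fold. The gene that fell was Hif1a, named after its value was seen, with a log2 change of -0.52 ± 0.11 (SE, adjusted p = 0.0188). This call was lost without Arid3b-null replicate 1 or 3 or wild-type replicate 1 or 2 (adjusted p = 0.0593, 0.0561, 0.0746 and 0.0598) and with dim probes kept in (0.0803). HIF alpha subunits are controlled mainly by protein stability, which an RNA array does not measure.

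Of the other cell markers listed, those of early neurons differed most between genotypes. Of 8 early neuron markers 8 fell, and their summed linear signal was 1.51 to 1.87 in Arid3b-null and 7.71 to 9.86 in wild type, relative to the 75th percentile. Of 8 primitive erythroid markers 2 fell, Klf1 and Gata1, where 12.9% of all genes fell. The 8 erythroid log2 changes had a median of -0.35, and 0 were positive. In 6 of the 8 the arrays of the genotypes did not overlap, which was so for 46.2% of all genes. The erythroid sums were 457 to 545 in Arid3b-null and 573 to 757 in wild type, ranges that did not overlap. Of 6 heart muscle markers 0 passed (limma), with 1 at an unadjusted p under 0.05 and sums of 11.8 to 32.0 in Arid3b-null and 24.2 to 38.8 in wild type. The part of these cell types in the changes of the HIF targets was not tested.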

How the data were processed

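RNA was labelled with Cy3 and hybridised to one-colour Agilent arrays, per the labels' protocols. The deposited intensity values are spot signals on a linear scale from Agilent Feature Extraction 10.7.3.1 (protocol GE1_107_Sep09, design 026655, build mm9), per the file headers. The deposited log2 value table served as an alternative, and the sources used here do not give its normalization.

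The main value was log2 of the processed signal minus the array's 75th percentile of non-control spots. Outlier spots (100 to 169 per array) were left out and spots of a probe averaged. Probes were named through RefSeq accessions (GRCm38.p6), which gave 26424 of 39429 probes 1 symbol. A gene was represented by its brightest tested probe. A fold is a bound where no array of a genotype had the probe well above background: the brighter genotype's mean is then set against the dimmer one's, after raising each dim value at least to the lowest signal that its array had well above background. Genes were tested with limma 3.58.1 in R 4.3.3, two-sided, with Benjamini-Hochberg adjustment, and every adjusted p comes from limma. The fit was tested on simulated data. With 3 arrays per genotype the number of arrays limits the precision.

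The members and lists were chosen with earlier results of these data known. All 34 members are named, and of each other list up to 3 called genes with the smallest adjusted p; further genes are marked as named later. Same-numbered arrays share a slide, per the file headers, and their deviations from the group means correlated at 0.16, 0.39 and 0.28 across genes, so the numbers pair the arrays. The block is an alternative, beside background correction, scaling, the deposited table, the filter, the probe rule and leaving out each array.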

Additional observations from a re-analysis of the deposited data

How the results depend on the processing

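The count of members that rose was 28 of 32 with normexp, median scaling, quantile normalization and the mean over probes. It was also 28 of 32 with the replicate block (the same blocks as the slide), and 28 of 31 with the deposited value table. It was 25 of 34 without a filter on dim probes, and 26 to 28 of 32 when 1 array was left out. Without the filter the rises of Higd1a, Ak4, Plod1 and Hilpda no longer passed. That of Lox then passed, against wild-type values not well above background. The count that fell was 2 with the replicate block, 1 with normexp and 1 without a filter, and 1 to 2 when 1 array was left out. The median change of the members moved to 1.54 with normexp and was 1.80 to 2.05 when 1 array was left out. The replicate block changed no call of a member. Over all genes, 1288 rose and 998 fell without a filter, which tests more genes, against 2694 and 2560 with it. When 1 array was left out, 1661 to 2047 rose and 1204 to 2037 fell. Of the genes followed across settings, only the heart marker Myl4 changed sign, with a log2 change of 0.0895 without Arid3b-null replicate 1 and -0.89 without Arid3b-null replicate 2, and it passed in no setting. The causes were not tested. Lox and Stc1 were not well above background on any wild-type array and Mxi1 on none of the 6 arrays. Counting only the members well above background in both genotypes, an alternative chosen after seeing the data, left 27 of 31 higher.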
